A study of Mus musculus with 8 samples.

Results

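The 10 genes described here encode the core of the Notch signaling pathway: the receptors *Notch1*, *Notch2* and *Notch3*, the ligands *Jag1*, *Jag2*, *Dll1* and *Dll4*, the DNA-binding factor *Rbpj*, and the target genes *Hes1* and *Hey1*. They were chosen by name and not by a rule on any measured value, out of 21951 protein-coding genes in the GENCODE annotation of mm10. The choice was made with earlier results of these data known. For each gene, every peak within 2000 bp of any annotated transcription start site (TSS) was taken as a promoter peak, and every other peak between the first and last base of the gene as a gene-body peak. All 10 genes were in the annotation, and each had a promoter peak for PBRM1 and for BRG1 once the replicates were pooled.

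Notch receptors are membrane proteins that are cut when a ligand of the Jagged or Delta-like family on a neighbouring cell binds them. The released intracellular part enters the nucleus, joins RBPJ on DNA and switches target genes of the HES and HEY families from repression to activation. In the uterus the pathway is known for its roles in the stroma around implantation and decidualization.

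Chromatin immunocleavage sequencing (ChIC-Seq) was used to map PBRM1, the BAF180 subunit that marks the PBAF form of the SWI/SNF chromatin remodeler, and BRG1, the ATPase of the complex. An antibody brings a micrococcal nuclease fusion to fixed chromatin, and the fragments released around its antigen are sequenced. Each antibody was used in 3 replicates of stromal cells prepared from the uterus of WT mice aged 8 to 12 weeks on day 4, and all libraries shared this genotype and day. The labels call the animals both pregnant and pseudopregnant, and state that 5 to 10 uterine horns were digested, that the medium was changed after 4 h and that cells were taken 2 h later. According to the labels a library held 50000 cells, with a fixation of 5 minutes. Libraries made with IgG, 2 in number, were not analysed here, and the lists name no control file, so each fold enrichment is relative to the local background of its own library. The labels do not say whether replicates came from separate animals or cultures, and p-values therefore measure only the spread between these samples, which may be technical.

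Between 8868777 and 16505239 fragments lay behind each PBRM1 replicate list and between 11506964 and 14595089 behind each BRG1 list, and they held 21912 to 26363 and 36656 to 40610 peaks. PBRM1 replicate 3 had the most fragments and the fewest peaks of all replicates. A peak is not a measure of expression, so the stromal label could be checked only by promoter peaks at marker genes. All 6 stromal markers had one in both pooled lists (*Vim*, *Pdgfra*, *Col1a1*, *Col1a2*, *Hoxa10* and *Hoxa11*), and so did all 6 epithelial markers. The stromal set kept a peak in all 3 BRG1 replicates at 6 genes and the epithelial set at 4 (61.4% of all protein-coding genes did). In all 3 PBRM1 replicates the counts were 3 and 1 (52.2% of all). The median pooled fold enrichment was higher in the epithelial set, at 4.54 against 3.50 for PBRM1 and 5.92 against 5.06 for BRG1. All 3 endothelial markers had a pooled BRG1 peak and 1, *Pecam1*, a pooled PBRM1 peak, with support in 3 BRG1 and 2 PBRM1 replicates. Of the 2 leukocyte markers, *Cd52* had a pooled PBRM1 peak (2.42-fold) that no replicate held, and *Ptprc* had no peak in any list. The part of other cells in the values below was not tested.

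Sequences are shown for 7 windows on which the results turn, read from GRCm38.p6, whose chromosomes carry the mm10 coordinates, 5′ to 3′ on the strand of the gene. The first pair are stretches just upstream of the *Notch2* start (chr3:98013288-98013526, plus strand) and the *Jag1* start (chr2:137116645-137116770, minus strand), promoters at which both proteins had peaks in every replicate, with each CpG in capitals. The *Notch2* stretch holds 34 CpGs in 239 bases and the *Jag1* stretch 14 in 126 bases.
*Notch2* promoter: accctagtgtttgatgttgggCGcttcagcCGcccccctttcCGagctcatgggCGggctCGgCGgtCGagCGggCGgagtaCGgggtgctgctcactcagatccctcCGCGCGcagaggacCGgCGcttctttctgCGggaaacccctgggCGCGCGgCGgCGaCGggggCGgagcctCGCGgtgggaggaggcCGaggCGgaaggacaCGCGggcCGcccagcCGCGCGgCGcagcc
*Jag1* promoter: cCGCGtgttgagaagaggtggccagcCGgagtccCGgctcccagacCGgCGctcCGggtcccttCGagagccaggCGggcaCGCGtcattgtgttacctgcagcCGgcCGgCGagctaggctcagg

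In the other windows, capitals mark matches on either strand to GTGGGAA or TGGGAA (strings that RBPJ binds), CACGTG or CACGAG (strings of the HES and HEY class) or TGANTCA (an AP-1 string). The *Rbpj* stretch lies upstream of the start of its longest coding transcript (chr5:53590096-53590213, plus strand) and holds 1 TGGGAA. The 4 windows of 251 bases are centred on the pooled BRG1 summits of the gene-body sites that drew BRG1 in all 3 replicates but PBRM1 in at most 1. They lie in intron 2 of *Notch1* (chr2:26494521-26494771, minus strand), in exon 24 of *Notch3* (chr17:32143348-32143598, minus strand), in intron 1 of *Notch2* (chr3:98024410-98024660, plus strand) and in intron 4 of *Notch2* (chr3:98073578-98073828, plus strand).
*Rbpj* promoter: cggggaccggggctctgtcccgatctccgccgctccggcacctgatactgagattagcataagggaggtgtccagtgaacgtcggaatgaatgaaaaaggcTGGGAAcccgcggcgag
*Notch1* intron 2: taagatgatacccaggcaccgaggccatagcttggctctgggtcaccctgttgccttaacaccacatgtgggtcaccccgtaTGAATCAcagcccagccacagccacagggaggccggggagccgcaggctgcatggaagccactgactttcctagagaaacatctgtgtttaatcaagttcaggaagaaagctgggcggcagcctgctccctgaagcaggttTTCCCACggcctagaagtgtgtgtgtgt
*Notch3* exon 24: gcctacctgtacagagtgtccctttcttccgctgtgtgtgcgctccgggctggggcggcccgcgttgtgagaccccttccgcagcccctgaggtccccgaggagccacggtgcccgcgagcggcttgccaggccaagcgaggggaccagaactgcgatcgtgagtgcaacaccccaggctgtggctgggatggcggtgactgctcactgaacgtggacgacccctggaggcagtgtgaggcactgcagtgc
*Notch2* intron 1: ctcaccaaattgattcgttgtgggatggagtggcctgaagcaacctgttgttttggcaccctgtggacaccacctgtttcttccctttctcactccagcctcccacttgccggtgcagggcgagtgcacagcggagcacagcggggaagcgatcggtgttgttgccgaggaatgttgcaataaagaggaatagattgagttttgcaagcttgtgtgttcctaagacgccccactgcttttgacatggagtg
*Notch2* intron 4: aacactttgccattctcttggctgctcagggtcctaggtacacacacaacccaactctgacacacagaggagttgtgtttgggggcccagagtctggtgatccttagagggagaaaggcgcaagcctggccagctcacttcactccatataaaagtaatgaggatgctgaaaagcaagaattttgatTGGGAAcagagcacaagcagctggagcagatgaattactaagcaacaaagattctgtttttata

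*Notch2*, which encodes a receptor, had the highest fold enrichment of the 10 genes at its promoter for both proteins. Its strongest PBRM1 peak was enriched 7.26-, 5.92- and 5.19-fold in replicates 1, 2 and 3, a mean of 6.12 ± 1.05 (SD, n = 3). For BRG1 the values were 8.31-, 9.32- and 8.06-fold, a mean of 8.56 ± 0.667 (SD, n = 3). The pooled summits of both proteins lay 67 bp apart, at positions −200 (BRG1) and −133 (PBRM1) relative to the main start, that of the longest coding transcript, inside a site of 1199 bp. A fold enrichment can be read only within its own library, and the 2 proteins are compared by ranks further on.

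*Notch1*, the receptor best known from blood and endothelial cells, also had both proteins at its start in every replicate. The PBRM1 values there were 5.47, 4.04 and 4.34, and the BRG1 values 4.30, 5.90 and 4.06, with means of 4.62 ± 0.754 and 4.75 ± 1.00 (SD, n = 3 each). The strongest pooled BRG1 promoter peak of the gene by −log10 q was a different one, 1327 bp downstream of the start in intron 1. That site (chr2:26502285-26502677) was enriched 4.07-, 5.37- and 5.71-fold for BRG1 and had a PBRM1 peak in replicate 1 only, at 3.47-fold. A further promoter site of *Notch1* lay at −12625 relative to its main start, near the start of a longer annotated transcript, with BRG1 in 3 replicates (mean 5.20 ± 0.796, SD, n = 3) and PBRM1 in 2 (4.56- and 4.28-fold).

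*Notch3*, the receptor known from vascular smooth muscle and pericytes, had the lowest fold enrichment of the 10 genes when each was taken at its strongest pooled PBRM1 promoter peak, at 2.96-fold. PBRM1 replicate 1 held it at 3.77-fold, and replicates 2 and 3 had no peak there. BRG1 had a peak in all 3 replicates, at 3.45, 4.39 and 4.20 (mean 4.01 ± 0.497, SD, n = 3). Ranked by −log10 q within its list (percentile, with 100 the strongest peak), the pooled *Notch3* promoter peak stood at 32.7 for PBRM1 and 71.6 for BRG1.

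Among the ligands, *Jag1*, which encodes a Jagged ligand, was the one bound in every replicate. At its start the PBRM1 values were 5.87, 4.16 and 4.25 (mean 4.76 ± 0.962, SD, n = 3) and the BRG1 values 4.90, 4.93 and 5.47 (mean 5.10 ± 0.321, SD, n = 3). A second site, 1775 bp downstream in intron 2, was also found in all 6 replicates, with a PBRM1 mean of 3.29 ± 0.664 and a BRG1 mean of 3.08 ± 0.137 (SD, n = 3 each). With overlapping pooled peaks merged into sites, *Jag1* and *Hey1* were the members with more than 1 promoter site present in every replicate.

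*Jag2*, the other Jagged gene, had the thinnest support. Its strongest pooled peaks, 3.98-fold for PBRM1 and 3.95-fold for BRG1, lay in coding sequence 639 and 743 bp downstream of the start. They were found in PBRM1 replicate 2 (4.44-fold) and in BRG1 replicates 2 and 3 (3.97- and 3.40-fold), and the last stood at only the 4.6th percentile of its list.

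The Delta-like genes resembled each other. *Dll1* had PBRM1 peaks of 5.74- and 4.77-fold in replicates 1 and 2 and none in replicate 3, and BRG1 peaks of 5.56, 4.63 and 5.67 (mean 5.29 ± 0.571, SD, n = 3). *Dll4*, a ligand known from sprouting endothelium, had PBRM1 peaks of 5.39- and 3.71-fold in replicates 1 and 2, none in replicate 3, and BRG1 peaks of 5.01, 5.21 and 6.41 (mean 5.54 ± 0.757, SD, n = 3). Both promoters are shared. The *Dll1* peaks also lay within 2000 bp of a start of the lincRNA *A930024N18Rik*, and the *Dll4* peak covered a start of the transcript *Gm14207*, so neither can be given to 1 gene alone.

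*Rbpj*, which encodes the factor that carries the pathway to DNA, had both proteins in every replicate across a site of 1683 bp, the widest promoter site of the 10 genes. The PBRM1 values were 5.67, 5.03 and 3.91 (mean 4.87 ± 0.891, SD, n = 3), and the BRG1 values 5.89, 5.85 and 6.61 (mean 6.12 ± 0.428, SD, n = 3). The summits of its strongest peaks were spread over 694 bp among the PBRM1 replicates and 1039 bp among the BRG1 replicates, compared with 113 and 116 bp at *Notch2*. Every replicate except PBRM1 replicate 3 had 2 separate peaks within the site, by the start and at −773 to −869. The upstream peak was the stronger in PBRM1 replicate 1 and BRG1 replicate 3, and the values above follow the stronger peak. The annotation gives *Rbpj* 12 start sites, and these peaks lay near the start of its longest coding transcript.

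*Hes1* and *Hey1* encode the bHLH repressors that report Notch activity in many cells. At *Hes1* the pooled PBRM1 list had 2 promoter peaks and the pooled BRG1 list 4. A site at −982 relative to the main start, by the start of a longer transcript, was found in PBRM1 replicate 2 (3.83-fold) and BRG1 replicates 1 and 2 (4.14- and 4.07-fold). Another, in coding sequence 1655 bp downstream of the main start, was found in replicates 1 and 2 of both proteins. PBRM1 was enriched there 4.02- and 2.79-fold and BRG1 3.77- and 2.67-fold. The strongest pooled BRG1 peak (chr16:30065104-30065312, 4.06-fold) lay at −127 relative to the main start, and no PBRM1 list had a peak there. It was found in BRG1 replicate 3 alone, so that *Hes1* had a BRG1 promoter peak in all 3 replicates while no single one of its sites did.

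With overlapping pooled peaks merged into sites, *Hey1* had 2 sites with both proteins in all 6 replicates. The first, around the start, had a PBRM1 mean of 4.70 ± 0.702 and a BRG1 mean of 4.39 ± 0.276 (SD, n = 3 each). It joins separate peaks: PBRM1 replicate 2 had only one with its summit at 341 bp, and replicate 3 only one at −415. No single PBRM1 peak of this first site thus recurred in all 3 replicates, and its means mix different peaks. The second (chr3:8664651-8664973) lay in coding sequence 2539 bp downstream of the main start and counted as a promoter peak because a shorter annotated transcript starts 1908 bp before it. PBRM1 was enriched there 5.12-, 4.28- and 4.01-fold and BRG1 4.79-, 6.42- and 6.03-fold, and it was the strongest pooled BRG1 peak of the gene.

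**Figure D1:**
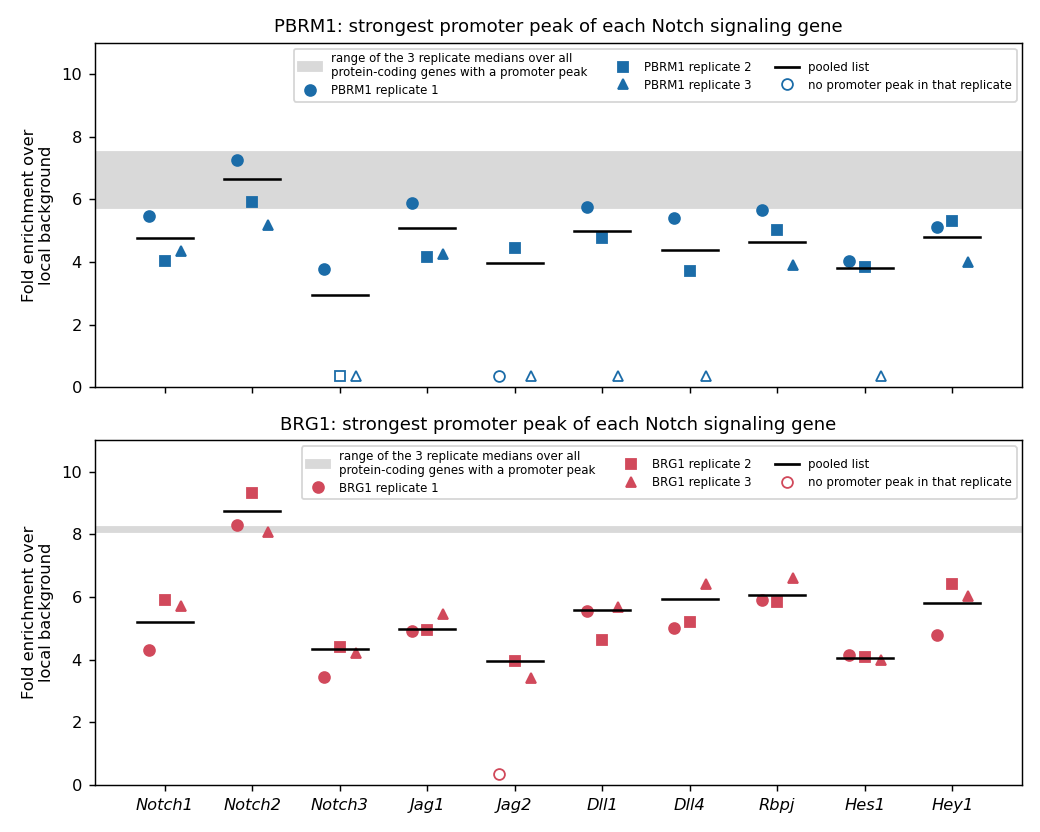
Fold enrichment over local background (y axis, linear) of the strongest promoter peak of each of the 10 genes (x axis) in the 3 replicates (symbols) and the pooled list (black line) of PBRM1 (top) and BRG1 (bottom), with open symbols where a replicate had no promoter peak and a grey band for the range of the replicate medians over all protein-coding genes with a promoter peak. *Notch2* is the highest for both proteins, 5 of the 10 genes have no PBRM1 peak in replicate 3, and most points lie below the grey band.

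Counted over the lists, a promoter peak was present at 10 of 10 genes in the pooled PBRM1 list, where 68.7% of all protein-coding genes had one, and at 10 of 10 in the pooled BRG1 list, where 72.1% did. The PBRM1 replicates held one at 9, 9 and 5 genes (all genes 60.0%, 60.7% and 55.3%) and the BRG1 replicates at 9, 10 and 10 (all genes 66.1%, 65.1% and 65.0%). All 3 PBRM1 replicates had one at 5 genes (52.2% of all genes), all 3 BRG1 replicates at 9 genes (61.4%) and all 6 replicates at 5 genes (51.9%). The 5 genes were *Notch1*, *Notch2*, *Jag1*, *Rbpj* and *Hey1*. For PBRM1, the share of the 10 genes found in every replicate was therefore near the background, and it turned on replicate 3. Without it, 8 genes had a pooled PBRM1 promoter peak that both other replicates held, against 5 genes when replicate 1 or 2 was left out instead. The share of all genes was not counted by this rule. A promoter peak in every remaining replicate of both antibodies was found at 12294 of the 21951 genes without PBRM1 replicate 3. Without replicate 1 or 2 it was found at 11626 and 11543 (8, 5 and 5 of the 10 genes).

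The promoter peaks were low in fold enrichment. In the pooled PBRM1 list the 10 genes had a median of 4.70 (range 2.96 to 6.66) at their strongest promoter peak, and none reached the median of 6.90 over the 15072 genes with a promoter peak. In the pooled BRG1 list the median was 5.39 (range 3.95 to 8.75) against 8.73 over 15830 genes, and *Notch2* alone stood above it. The same held in each PBRM1 replicate, where 0 genes reached the median of all genes, and in the BRG1 replicates, where 1, 1 and 0 did. The strongest peak itself had a median length of 715 bp for PBRM1 and 689 bp for BRG1, against 776 and 794 bp over all genes with a promoter peak. The length summed over all promoter peaks of a gene had a median of 1197 bp for PBRM1 and 1536 bp for BRG1, against 937 and 991 bp over the same genes, and lay above that median at 7 and 8 of the 10 genes. A gene with many annotated starts is searched over more bases (12 starts at *Rbpj* and 11 at *Notch1*, but 2 at *Notch2*), and the part of this in the sum was not tested.

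Away from the promoters, peaks were found in the bodies of 5 genes, *Notch1*, *Notch2*, *Notch3*, *Jag1* and *Rbpj*, in each pooled list. Over all protein-coding genes, 29.0% had a gene-body peak in the pooled PBRM1 list and 36.4% in the pooled BRG1 list. These are the 5 longest of the 10 genes, from 35189 bp (*Jag1*) to 191211 bp (*Rbpj*), whereas the median length is 17403 bp for all protein-coding genes and 48222 bp for those with a gene-body peak in the pooled BRG1 list. The share of length in this count was not tested. The lists held 17 gene-body peaks for PBRM1 and 37 for BRG1. All 3 BRG1 replicates had at least 1 at *Notch1*, *Notch2*, *Notch3* and *Rbpj* (4 of 10 genes, 14.1% of all genes). At *Rbpj* no single gene-body site was found in more than 1 BRG1 replicate.

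Merged over both pooled lists, the promoter peaks made 24 sites and the gene-body peaks 41. Sharing between the proteins was not counted over all genes, so whether the counts below are particular to these genes was not tested. The pooled BRG1 list is also longer (82669 peaks against 55119 for PBRM1). Of the promoter sites, 15 were in both pooled lists, 9 in BRG1 only and 0 in PBRM1 only, and 7 were found in all 6 replicates. Of the gene-body sites, 13 were in both, 24 in BRG1 only and 4 in PBRM1 only, and 0 were found in all 3 PBRM1 replicates. Replicate support was thin there, as 19 of the 41 sites had no peak in any replicate, compared with 4 of 24 promoter sites. Where both proteins had a pooled peak, their summits lay a median of 104 bp apart at promoters and 46 bp apart in gene bodies.

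**Figure D2:**
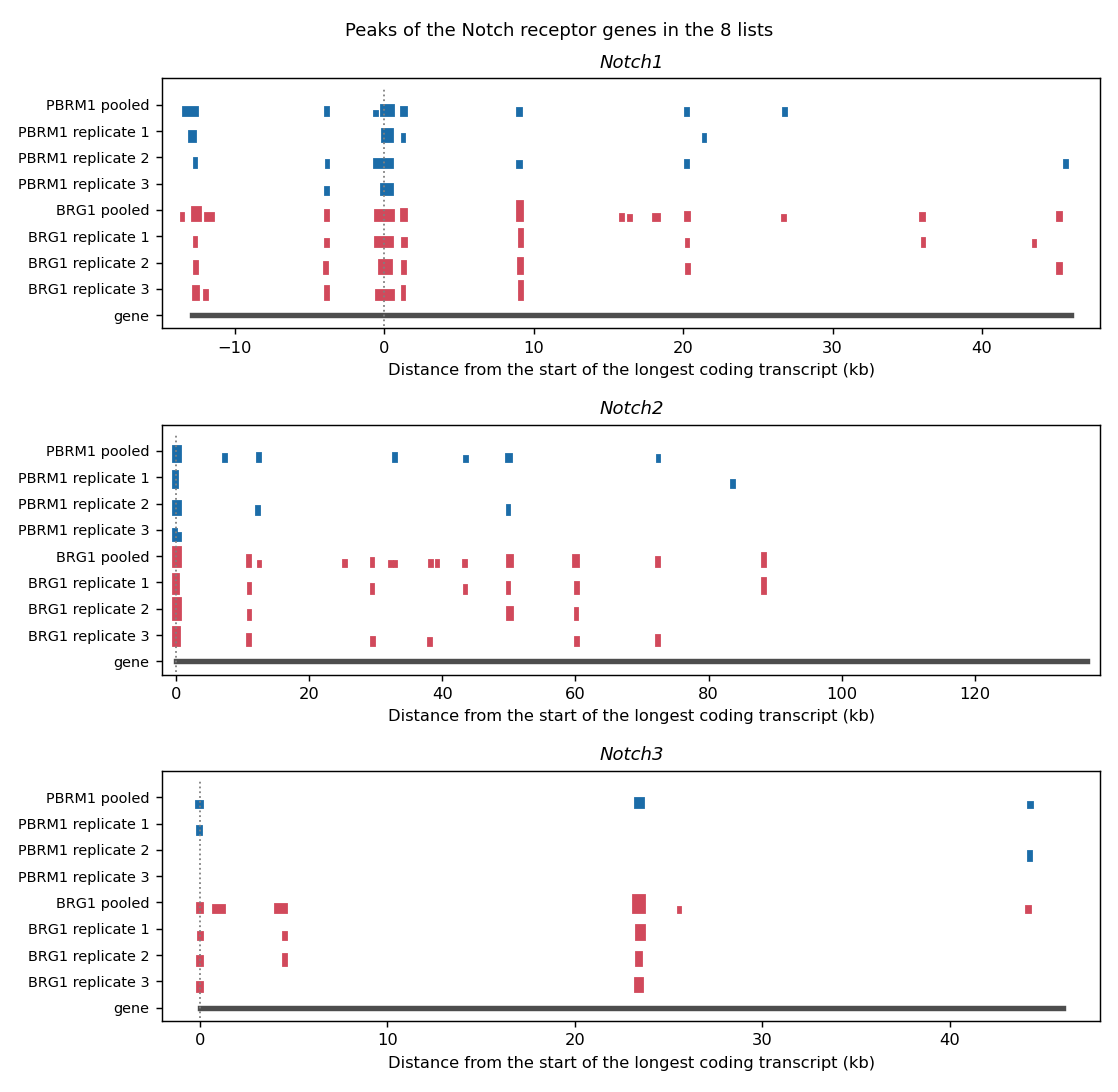
Peaks of PBRM1 (blue) and BRG1 (red) in the 8 lists along *Notch1*, *Notch2* and *Notch3*, plotted against the distance from the start of the longest coding transcript in kb, with the annotated gene as a grey bar. Block height is proportional to fold enrichment and narrow peaks are drawn at a minimum width, and blocks recur in all 3 BRG1 replicates at 9176 bp of *Notch1*, 10997 and 60165 bp of *Notch2* and 23379 bp of *Notch3* but in at most 1 PBRM1 replicate.

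No gene-body site had a peak in all 6 replicates, and the 5 sites with one in all 3 BRG1 replicates were chosen with their values in view. The highest lay in intron 2 of *Notch1*, 9176 bp from the main start (chr2:26494527-26494959), where BRG1 was enriched 7.70-, 6.46- and 7.95-fold (mean 7.37 ± 0.798, SD, n = 3) and PBRM1 had a peak in replicate 2 alone, at 3.06-fold. The BRG1 fold enrichments exceeded those at the *Notch1* start in every replicate. The pileup at the summit was lower than at the start in each (45, 29 and 33 against 51, 58 and 39). By −log10 q the site ranked above the start in replicates 1 and 3 and below it in replicate 2 (percentile 73.2 against 85.7). The 3 BRG1 summits fell within 13 bp of each other.

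In exon 24 of *Notch3*, which is coding (chr17:32143124-32143746), BRG1 was enriched 6.26-, 5.80- and 6.12-fold (mean 6.06 ± 0.236, SD, n = 3). These fold enrichments were again above those at the promoter of the same gene in each replicate. The percentiles were also higher (55.9, 51.0 and 55.1 against 22.0, 44.1 and 38.9), but the pileups were lower (15, 13 and 14 against 16, 17 and 16). No PBRM1 replicate had a peak at the exon 24 site, although the pooled PBRM1 list did, at 4.41-fold against 7.92-fold for pooled BRG1. The BRG1 summits spanned 23 bp.

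The *Notch2* sites lay 10997 bp from the main start, in intron 1, and 60165 bp from it, in intron 4. They carried BRG1 in every replicate, at 4.66 ± 0.526 and 4.49 ± 0.658 (mean and SD, n = 3 each), and had no PBRM1 peak in any replicate or in the pooled list. The remaining site lay at −3820 relative to the main *Notch1* start, inside the longer transcript. BRG1 was enriched there 3.71-, 4.85- and 6.11-fold, and PBRM1 had peaks in replicates 2 and 3 at 3.45- and 3.46-fold.

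By −log10 q, the strongest pooled BRG1 gene-body peaks of *Notch1* and *Notch3* were the intron 2 and exon 24 sites above. That of *Notch2* lay in intron 2 (chr3:98063089-98064181) at 5.17-fold, with peaks in BRG1 replicates 1 and 2 (4.84- and 5.33-fold) and in PBRM1 replicate 2 (4.28-fold). *Rbpj* had 11 pooled BRG1 gene-body peaks over its 191211 bp, the strongest at 5.25-fold and with a peak in BRG1 replicate 3 alone, and *Jag1* had 1, at 3.57-fold and in no replicate. A pooled BRG1 peak near the 3′ end of *Notch1* (3.63-fold) also lay 1320 bp from a start of the transcript *Gm13568*.

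**Figure D3:**
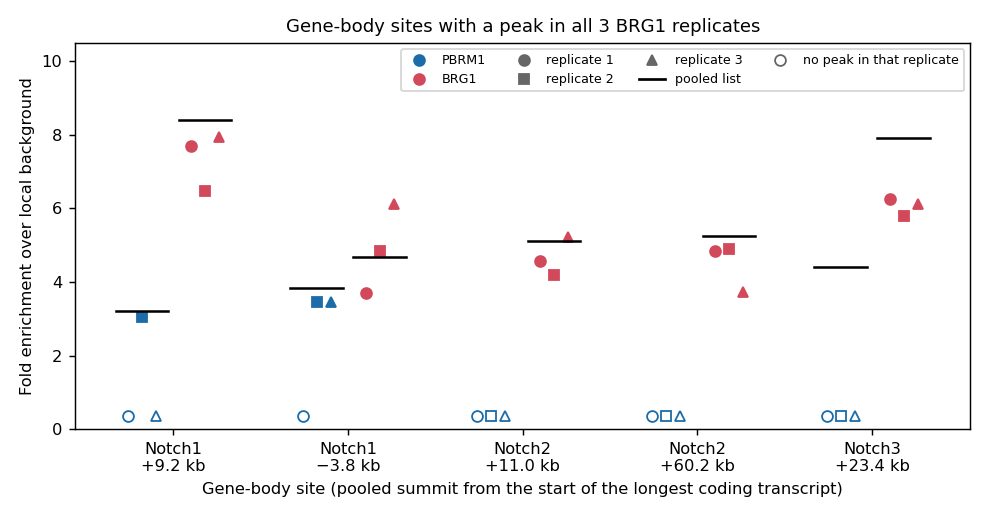
Fold enrichment over local background (y axis, linear) at the 5 gene-body sites with a peak in all 3 BRG1 replicates (x axis, with the distance of the summit from the main start), for the replicates (symbols) and pooled lists (black lines) of PBRM1 (blue) and BRG1 (red), with open symbols where a replicate had no peak. BRG1 at the *Notch1* site at 9176 bp runs from 6.46 to 7.95 and PBRM1 has 1 replicate peak there, while the *Notch2* and *Notch3* sites have no PBRM1 replicate peak.

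Whether the proteins differed at these genes was asked by rank, because each list has its own scale. For the 5 genes with a promoter peak in all 6 replicates, the strongest promoter peak was ranked within its list. The PBRM1 percentiles of *Notch2* were 74.4, 66.7 and 65.2 (mean 68.8 ± 4.93) and its BRG1 percentiles 85.7, 88.2 and 83.1 (mean 85.6 ± 2.58, SD, n = 3 each). Every BRG1 value was above every PBRM1 value, and the difference, BRG1 minus PBRM1, was 16.9 (exact permutation test, two-sided, p = 0.1, which is the lowest value that 3 against 3 samples can give).

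*Rbpj* was likewise higher for BRG1, with 67.9, 70.3 and 55.1 for PBRM1 and 81.3, 81.1 and 84.6 for BRG1, a difference of 17.9 (exact permutation test, p = 0.1). *Jag1* had 70.1, 57.4 and 63.8 for PBRM1 and 74.4, 72.2 and 77.9 for BRG1, a difference of 11.0 (exact permutation test, p = 0.1). At *Notch1* (68.5, 60.5 and 74.4 against 73.7, 85.7 and 81.2) and *Hey1* (45.8, 61.2 and 37.3 against 59.1, 71.5 and 71.4) the ranges overlapped, with differences of 12.4 and 19.3 (exact permutation test, p = 0.2 each). These differences were 7.51 and 3.08 when promoter peaks were limited to 1000 bp from a start.

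In all, BRG1 percentiles were above those of PBRM1 without overlap at 3 of 5 genes, and the same was true of 40.0% of the 11388 genes tested, with a median difference of 16.9 over the 5 genes and 8.77 over all. The BRG1 lists are longer, and this bears on the rank. When only the 20000 strongest peaks of each list were ranked, no gene of the 5 kept separate ranges (13.2% of 10664 genes did), *Notch2* and *Rbpj* kept differences of 9.60 and 7.91, and those of *Jag1* and *Hey1* turned to −4.80 and −2.27. Separate ranges were thus seen in the full lists only. When peaks were ranked by fold enrichment in place of −log10 q, *Notch2* and *Rbpj* kept separate ranges and *Jag1* did not (2 of 5 genes, 32.5% of all genes tested). In the full lists 6 of 8 genes separated without PBRM1 replicate 3 (47.3% of all genes tested) and 5 of 5 without BRG1 replicate 1 (43.7%).

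**Figure D4:**
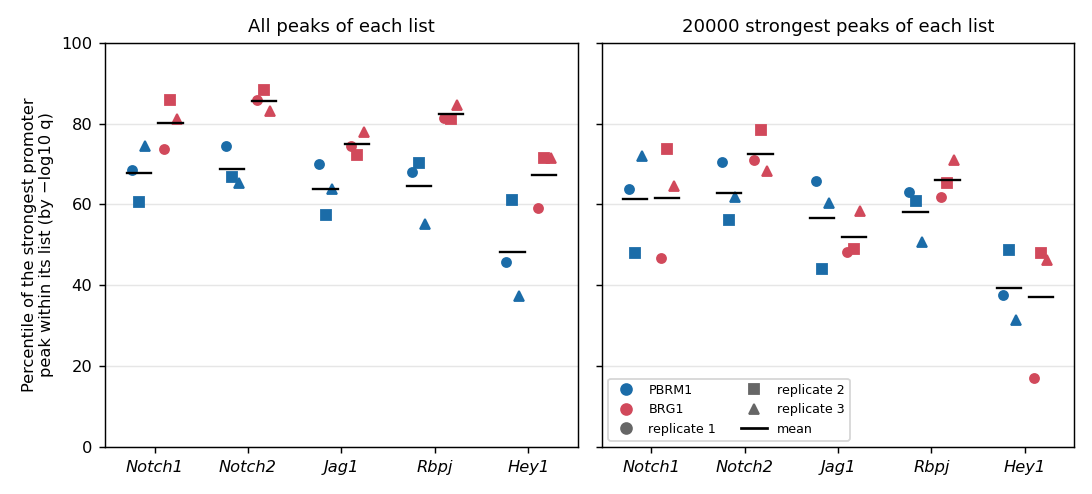
Percentile of the strongest promoter peak within its list, ranked by −log10 q (y axis, 100 strongest), for the 5 genes with a promoter peak in all 6 replicates (x axis), over all peaks (left) and over the 20000 strongest peaks of each list (right), with symbols for replicates and black lines for means of PBRM1 (blue) and BRG1 (red). BRG1 lies above PBRM1 without overlap at *Notch2*, *Jag1* and *Rbpj* on the left and at none of the 5 genes on the right.

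For gene-body peaks the counts per replicate were compared. *Notch2* had 1, 2 and 0 PBRM1 peaks and 6, 3 and 5 BRG1 peaks, a difference in means of 3.67 (two-sided exact permutation test, p = 0.1). *Rbpj* had 0 in every PBRM1 replicate and 3, 1 and 2 for BRG1 (difference 2.00, exact permutation test, p = 0.1). None of these *Rbpj* peaks was shared between BRG1 replicates, and they stood at percentiles of 6.0 to 32.4. The counts of both genes did not overlap, which was so for 2 of 10 genes and for 4.05% of all 21951 genes. Such a call needs a gene-body peak in all 3 BRG1 replicates, which 4 of the 10 genes and 14.1% of all genes had. *Rbpj* and *Notch2* are also the longest of the 10 genes (191211 and 136835 bp), and the part of length in this count was not tested.

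*Notch1* had 1, 4 and 1 PBRM1 peaks against 4, 4 and 2 for BRG1 (difference 1.33, exact permutation test, p = 0.4), and *Notch3* 0, 1 and 0 against 2, 2 and 1 (difference 1.33, exact permutation test, p = 0.2). The other 6 genes had at most 1 gene-body peak in any replicate. With the 20000 strongest peaks of each list, *Rbpj* had none left in any replicate and *Notch2* overlapped. *Notch1* then separated, with 0, 1 and 1 PBRM1 peaks against 2, 2 and 2 for BRG1, as 0.323% of all genes did. Without PBRM1 replicate 2 the full lists separated at 4 genes, *Notch1* and *Notch3* included (5.89% of all genes).

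The bases under the promoter peaks were rich in G and C. In the window from 250 bp before to 250 bp after the strongest pooled PBRM1 promoter summit, the 10 genes had 59.1% to 74.7% G and C (median 65.7%) and 8 were above the median of 61.7% over all promoter peak windows. The ratio of observed to expected CpG had a median of 0.819 (range 0.514, at *Dll4*, to 1.11, at *Jag2*) against 0.700. For BRG1 the medians were 64.5% against 60.5% and 0.760 against 0.663. The sets are unlike, since all promoter peak windows (20472 for PBRM1 and 24481 for BRG1) include the weaker peaks of a gene. The 10 genes were taken at their strongest peak only, and the part of this choice in the differences was not tested. This holds for the promoter strings below as well. The lowest G and C share, 49.3%, was that of the BRG1 peak upstream of *Hes1*.

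The RBPJ string GTGGGAA was in these windows of 2 of the 10 genes for PBRM1 (*Dll1* and *Hey1*), where 10.3% of all promoter peak windows held it, and of 2 of the 10 for BRG1 (*Notch1* and *Hes1*), where 10.7% did. At *Hes1* it lay 46 bp from the BRG1 summit, and this window also held 2 copies of CACGAG. The AP-1 string was in none of these windows for either protein (9.39% and 9.81% of all promoter peak windows). In the gene bodies GTGGGAA was in the windows of 4 of 17 PBRM1 peaks and 7 of 37 BRG1 peaks (12.3% of all windows away from promoters in each list), and the AP-1 string in 6 of 17 and 6 of 37 (21.6% and 20.8%).

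Of the gene-body sequences printed above, the *Notch1* intron 2 window holds GTGGGAA, seen as its complement TTCCCAC, with its first base 104 bp from the summit, together with 1 TGAATCA. The *Notch2* intron 4 window holds 1 TGGGAA, and the *Notch2* intron 1 and *Notch3* exon 24 windows hold none of these strings. RefSeq promoters, from 250 bases before to 50 after a start, were found for 8 of the 10 genes, and *Hes1* and *Hey1* were not among them. In the 250 bases upstream, none of these held GTGGGAA (5.42% of all 32851 promoters did), both *Rbpj* promoters held TGGGAA (21.6%), *Notch3* CACGAG (5.37%) and 1 of the 2 *Dll1* promoters the AP-1 string (6.75%). A match is a description of the letters only.

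The rest of the pathway was followed in a list of 46 further genes. A promoter peak was present at 45 of them in the pooled PBRM1 list and at all 46 in the pooled BRG1 list, where 68.7% and 72.1% of all protein-coding genes had one. All 6 replicates held one at 36 of the 46 genes and at 5 of the 10 core genes, and at 51.9% of all protein-coding genes, so the core genes stood near the background. *Dlk1*, a non-canonical ligand, was the gene without a PBRM1 peak, and its pooled BRG1 peak was enriched 4.19-fold. By role, all 6 replicates had a promoter peak at 3 of 4 further receptors and ligands, 7 of 8 genes of glycosylation and endocytosis, 7 of 8 of proteolysis, 9 of 10 of the nuclear complex and corepressors, 6 of 9 inhibitors and 4 of 7 targets.

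Fold enrichment differed between the roles, although no difference between them was tested. The 8 proteolysis genes, which encode the ADAM proteases and γ-secretase, had median pooled values of 8.20-fold for PBRM1 and 10.8-fold for BRG1, and 6 and 7 of them stood above the median of all genes. The 4 further receptors and ligands had medians of 5.31 (3 genes with a peak) and 6.75, and 0 stood above. The 7 further targets had medians of 4.82 and 4.14, with 2 and 3 above. The strongest PBRM1 peaks by −log10 q that all 6 replicates held were those of *Aph1b*, a γ-secretase subunit (116.2), *Mib2*, a ubiquitin ligase that drives ligand uptake (85.2), and the bHLH gene *Hes6* (85.0), whose fold enrichments were 10.7, 11.4 and 9.22.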

How the data were processed

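Per the methods, the authors trimmed and aligned the read pairs with cutadapt and Bowtie2 (GRCm38.p5 per the labels, the primary chromosomes of mm10) and ran MACS 2.2.7.1 on every replicate and again on the fragments of all 3 replicates of an antibody together. Per the file headers, the 8 lists were made at a q-value of 0.05 with a local background of up to 10000 bp, without a control file. For each peak, the deposited lists give a pileup signal, a fold enrichment over local background and a −log10 q-value, as the authors' MACS run wrote them. Of 323901 peaks, 306 lay outside the 21 assembled chromosomes and were not checked, and none of the others ran past the end of a chromosome of the reference used here.

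Peaks were intersected with GENCODE vM21 genes by at least 1 bp in Python 3.11.15 with numpy 2.4.6, pandas 2.3.3, pysam 0.24.0, samtools 1.23.1 and matplotlib 3.10.9. The main start of a gene is that of its longest coding transcript. Sequences came from the RefSeq genome and promoters (GRCm38.p6). A gene's percentile is the rank of its strongest promoter peak by −log10 q within its list. Antibodies were compared with two-sided exact permutation tests over 3 against 3 replicates. The intersection of peaks with promoters and gene bodies, the permutation test and the rule for ranges without overlap were tested on simulated data. The genes named are the 10 Notch signaling genes, pathway genes with a promoter peak in 1 or no pooled list, the 3 with the highest pooled PBRM1 −log10 q among those in all 6 replicates, gene-body sites in all 6 replicates, each gene's strongest pooled BRG1 gene-body peak by −log10 q, and genes sharing a peak. The members and lists were chosen with earlier results of these data known. Alternatives were other promoter distances, annotations, thresholds, overlaps and windows, equal numbers of peaks per list, a replicate block and each replicate left out in turn.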

Additional observations from a re-analysis of the deposited data

How the results depend on the processing

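The number of genes with a pooled promoter peak stayed at 10 of 10 for other promoter distances, basic transcripts and a 50% overlap. At a fold enrichment of at least 5 it was 2 (PBRM1) and 6 (BRG1), and with support from all 3 replicates it was 5 (PBRM1) and 8 (BRG1). With 1 replicate left out it was 5 to 8 (PBRM1) and 8 to 9 (BRG1), the highest PBRM1 count being without replicate 3. The share of all genes with a pooled promoter peak was not counted at this fold threshold or with this replicate support. The 17 PBRM1 gene-body peaks numbered 7 at a −log10 q of 5 or more and 0 at a fold enrichment of at least 5 or with support from all 3 replicates (0 to 1 with 1 replicate left out). The 37 BRG1 gene-body peaks fell to 21, 7 and 5 in the same order (5 to 8 with 1 replicate left out).

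Genes with BRG1 percentiles all above those of PBRM1 numbered 3, 2 when ranked by fold enrichment, and 3 to 6 with 1 replicate left out. With the 20000 strongest peaks of each list they numbered 0, and the differences of *Jag1* and *Hey1* were −4.80 and −2.27. For gene-body counts 2 genes became 1 there, and 2 to 4 with 1 replicate left out. Same-numbered replicates did not deviate together (correlations of −0.011, −0.007 and 0.012 over 11388 genes), and neither did the other pairs (−0.015 to 0.024). This cannot tell whether same-numbered samples share a cell preparation, since differences between libraries could hide a shared source. With a replicate block, BRG1 was higher in every pair at 5 genes for the percentile (52.9% of all genes tested) and 3 for gene-body counts (5.53%), where the exact sign-flip test can give no p below 0.25. The 2 PBRM1 windows with GTGGGAA became 1 within 100 bp of the summit, and TGGGAA was in 4 of 10 windows for PBRM1 and 4 of 10 for BRG1 (35.1% of all promoter peak windows in each list).

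Without the IgG libraries a site that yields fragments with any antibody cannot be told apart from one bound by PBRM1 or BRG1. A missing peak says that none passed the threshold at that depth, not that the protein was absent.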

Other observations

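Within 10000 bp outside the 10 genes, the pooled BRG1 list had 17 peaks that the rule for promoters and gene bodies does not take, beside 7 of the genes, and 3 of them were found in all 6 replicates. These were picked out after their values were seen. The highest lay 2141 bp beyond the 3′ end of *Dll4* (chr2:119337633-119338309), with PBRM1 at 9.22-, 7.61- and 6.34-fold and BRG1 at 7.85-, 11.5- and 12.9-fold, above the *Dll4* promoter in the 5 replicates that had a peak there. The nearest start of another gene was 11909 bp away. The others lay 9721 bp beyond *Jag2* (PBRM1 4.85, 4.06 and 4.06, BRG1 6.30, 5.35 and 7.10) and 7014 bp beyond *Notch3* (PBRM1 4.91, 5.54 and 3.19, BRG1 5.39, 6.36 and 5.50), the last at 59 bp from a start of the antisense transcript *Gm17276*. A site 9220 bp upstream of the annotated *Notch1* gene had BRG1 at 7.02-, 7.69- and 5.66-fold and PBRM1 in replicates 2 and 3 at 4.92- and 5.70-fold. Which gene these sites serve was not tested.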
